A study of Mus musculus with 4 samples.

Results

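The genes described here build heme and bring iron to the place where it is built. They were taken by symbol, as a group proposed with earlier results of these data known: 7 enzymes of heme synthesis (Alas2, Alad, Uros, Urod, Cpox, Ppox and Fech), the transferrin receptor Tfrc and mitoferrin 1, Slc25a37. These 9 genes were measured among 30748 that had a transcript cluster of their own (a set of probes that the array reads as 1 gene or transcript). Each of the 9 had 1 cluster, and all 9 lay above the 75th percentile of all cluster means.

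The RNA came from mouse bone marrow, on 1 Affymetrix array for each of 4 groups: Astragalus membranaceus (astragalus below, whose root is a Chinese herbal remedy), electro-acupuncture (needling with electric current), cisplatin (a platinum-based DNA-damaging chemotherapy drug) and control. In every group the mice were treated for 2 weeks, the tibial marrow was spun out of the bone and frozen, and total RNA was extracted with Trizol, 6 ug of it being labelled with biotin. The series text says that 6 marrow samples were mixed, which was read as 6 mice pooled per group although that is not stated outright. The sources used here do not give strain, sex, age, doses or needling points, nor whether the astragalus and electro-acupuncture mice also received cisplatin, so each was set against both the cisplatin and the control array.

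Values are deposited log2 signals, so a difference of 1 is a 2-fold difference. With 1 array per group no difference has a replicate check, no test was possible and no p-value is given, and higher and lower below describe pairs of arrays. The 6 comparisons among 4 arrays share those arrays and are not independent of one another. Size is read against all 17207 genes whose mean reached 5.235, the median of all clusters, and it is counted at 1.5-fold (0.585 on the log2 scale) and at 2-fold. Values are as deposited unless a scaling is named: centring each array on its median, quantile normalization, or removal of the trend of the differences on level with a smoothed curve (lowess). In whole marrow, fewer cells of a type and less RNA per cell cannot be told apart.

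Heme is an iron-containing ring that carries oxygen in hemoglobin, and developing red cells of the marrow make most of the body's supply. Synthesis starts in the mitochondrion, where ALAS2 joins glycine and succinyl-CoA, passes through the cytosol for steps that include those of ALAD, UROS and UROD, and returns to the mitochondrion for CPOX, PPOX and ferrochelatase, which inserts the iron. That iron enters the cell on transferrin through the transferrin receptor and crosses the inner mitochondrial membrane through mitoferrin 1.

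Alas2, Urod, Cpox, Ppox and Fech varied by 1.68-fold to 2.39-fold over the 4 arrays, and Alad, Uros, Tfrc and Slc25a37 by 1.18-fold to 1.46-fold. As deposited, 8 of the 9 genes were highest on the astragalus array. Alas2, the red cell form of the rate-limiting first enzyme, had a log2 level of 15.39 in astragalus, 15.00 in electro-acupuncture, 14.99 in cisplatin and 14.64 in control marrow. Astragalus was the highest and control the lowest, 1.68-fold apart, and electro-acupuncture and cisplatin lay within 0.01 of each other. Alad, which joins 2 molecules of the ALAS2 product into a ring, had 14.63 in astragalus, 14.49 in electro-acupuncture, 14.39 in cisplatin and 14.49 in control marrow. It varied least of all 9 genes, by 1.18-fold, and 19.9% of all genes varied less.

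Uros closes the large ring of the pathway in the orientation that heme needs. Its level was 8.30 in astragalus, 8.05 in electro-acupuncture, 8.02 in cisplatin and 8.22 in control marrow, so astragalus and control were the higher pair and all 4 arrays lay within 1.21-fold. Urod trims the side chains of that ring, and it had 10.32 in astragalus, 9.87 in electro-acupuncture, 9.59 in cisplatin and 9.57 in control marrow. Cisplatin and control were nearly equal for Urod, and astragalus exceeded control by 1.68-fold.

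Cpox oxidises 2 side chains of the Urod product in the mitochondrion. It had 12.57 in astragalus, 12.49 in electro-acupuncture, 12.12 in cisplatin and 11.60 in control marrow, so control was below the other 3 arrays and astragalus exceeded it by 1.96-fold. Ppox, which makes protoporphyrin in the step after Cpox, ran the other way, with 10.23 in astragalus, 9.57 in electro-acupuncture, 9.68 in cisplatin and 10.37 in control marrow. It alone of the 9 genes was highest in control, with astragalus and control as a higher pair and electro-acupuncture and cisplatin as a lower pair. Fech encodes ferrochelatase, the last enzyme, and had the widest range of the 9 genes, 2.39-fold, wider than that of 92.5% of all genes. Its levels were 13.50 in astragalus, 12.71 in electro-acupuncture, 12.68 in cisplatin and 12.24 in control marrow, with the middle pair nearly equal.

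Tfrc, the receptor that takes up transferrin with its iron, had 15.75 in astragalus, 15.49 in electro-acupuncture, 15.20 in cisplatin and 15.31 in control marrow. Cisplatin and control differed by 1.08-fold, and astragalus exceeded cisplatin by 1.46-fold. Slc25a37, which carries iron into the mitochondrion of red cell precursors, had 15.40 in astragalus, 15.03 in electro-acupuncture, 15.03 in cisplatin and 15.02 in control marrow. Electro-acupuncture, cisplatin and control were thus alike to within 0.01 for this gene, and astragalus stood 1.29-fold above cisplatin.

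**Figure D1:**
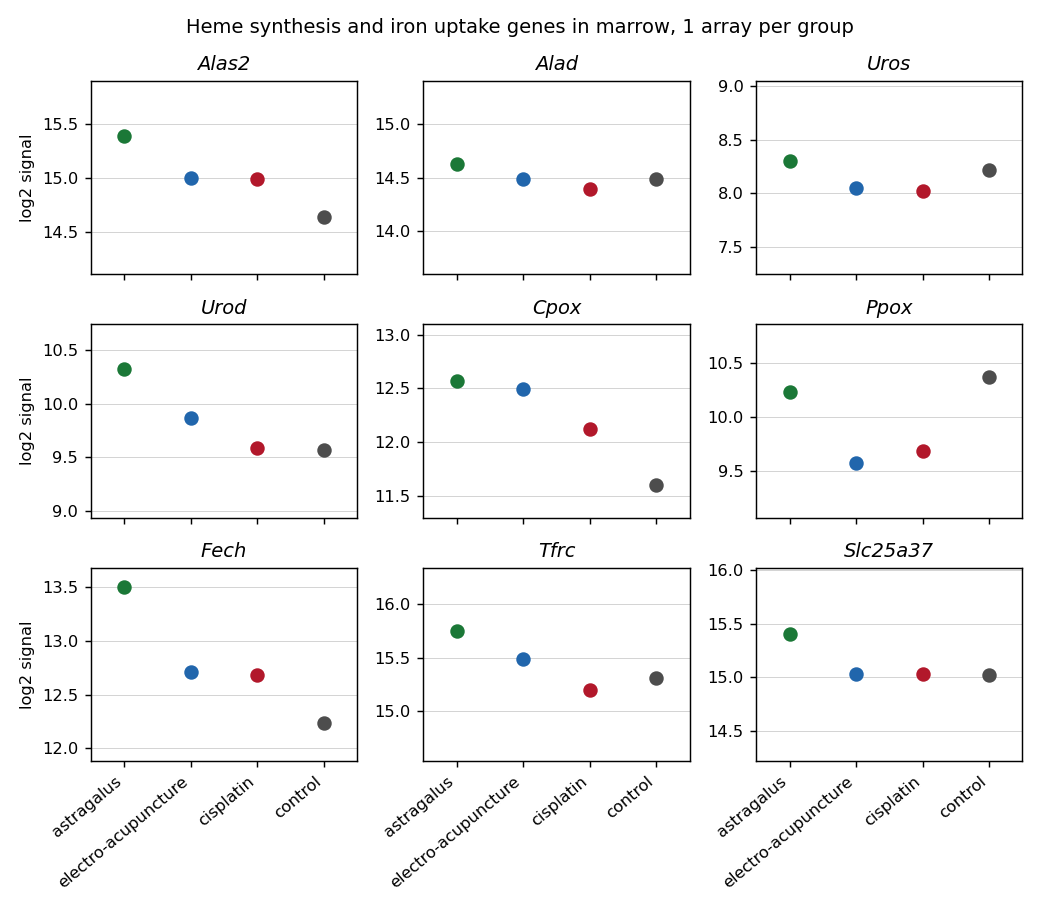
Log2 level of each of the 9 genes (vertical axis) on the astragalus, electro-acupuncture, cisplatin and control arrays, 1 point per array and no error bars because each group has 1 array. Astragalus is the highest point for every gene but Ppox, whose highest point is control at 10.37, and Fech has the widest spread, 12.24 to 13.50.

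Across the 9 genes the median range over the 4 arrays was 0.75, against 0.44 over all genes tested. A range of at least 1, which is 2-fold, was reached by 1 of the 9 (Fech; 11.1%), against 13.4% of all genes. Control was the lowest array for 5 genes, cisplatin for 3 and electro-acupuncture for 1. The lowest array was not counted over all genes, so these counts cannot be called particular to the 9. As deposited, Alas2, Urod, Cpox and Fech shared 1 order, with control lowest, then cisplatin, then electro-acupuncture and then astragalus. That order held for 44.4% of the 9 genes, 11.5% of all genes and 17.9% of the 9229 genes with a mean at or above 6.63, the 75th percentile of all clusters. Some steps in it are small: cisplatin and control differed by 0.02 for Urod, electro-acupuncture and cisplatin by 0.01 for Alas2 and 0.03 for Fech, and astragalus and electro-acupuncture by 0.08 for Cpox. Each of these 4 steps turned under at least 1 scaling, to -0.03 for Urod with centred arrays and to -0.13 for Alas2, -0.12 for Fech and -0.23 for Cpox with the trend removed. Astragalus was the highest array for 36.6% of all genes and 52.8% of those 9229.

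The promoters of 3 genes with contrasting patterns are shown for what lies just before their starts: Alas2 and Cpox, which were lowest in control, and Ppox, which was highest there, together with Uros. Urod, Fech and Slc25a37 were also lowest in control and are not shown. Uros has 2 annotated starts, and in mouse it is known to be transcribed from both a housekeeping and an erythroid promoter. GATA1, the main transcription factor of red cell precursors, binds the letters GATA with set neighbours. Sequences are RefSeq entries on GRCm38.p6, from 250 bases before to 50 bases after the annotated start, written 5′ to 3′ on the gene's strand. Capitals mark every match on either strand to GATA with A or T before it and A or G after it, so that TTATCT, for example, is a match on the other strand. Windows of 7 of the 9 genes were searched, 10 in all. No window of Fech or Slc25a37 was searched, so nothing is said of their promoters.
Alas2, chrX:150547167-150547466, plus strand: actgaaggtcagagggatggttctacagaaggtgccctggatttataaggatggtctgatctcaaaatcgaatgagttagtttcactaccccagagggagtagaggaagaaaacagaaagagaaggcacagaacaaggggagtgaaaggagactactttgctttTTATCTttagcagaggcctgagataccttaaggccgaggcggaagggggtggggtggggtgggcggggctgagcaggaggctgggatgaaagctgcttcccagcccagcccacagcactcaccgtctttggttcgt
Cpox, chr16:58669958-58670257, plus strand: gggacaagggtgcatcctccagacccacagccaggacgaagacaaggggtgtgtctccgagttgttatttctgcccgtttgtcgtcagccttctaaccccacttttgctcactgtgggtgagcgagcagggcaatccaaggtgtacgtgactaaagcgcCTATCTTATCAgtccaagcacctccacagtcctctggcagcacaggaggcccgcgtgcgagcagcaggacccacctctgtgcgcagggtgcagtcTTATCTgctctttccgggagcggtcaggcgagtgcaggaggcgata
Uros, chr7:133702451-133702750, minus strand: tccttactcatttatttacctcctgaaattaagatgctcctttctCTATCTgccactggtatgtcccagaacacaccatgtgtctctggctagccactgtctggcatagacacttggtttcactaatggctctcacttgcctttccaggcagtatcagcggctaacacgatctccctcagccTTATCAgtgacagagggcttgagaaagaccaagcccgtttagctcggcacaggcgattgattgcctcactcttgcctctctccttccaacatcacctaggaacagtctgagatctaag
Uros upstream start, chr7:133709246-133709545, minus strand: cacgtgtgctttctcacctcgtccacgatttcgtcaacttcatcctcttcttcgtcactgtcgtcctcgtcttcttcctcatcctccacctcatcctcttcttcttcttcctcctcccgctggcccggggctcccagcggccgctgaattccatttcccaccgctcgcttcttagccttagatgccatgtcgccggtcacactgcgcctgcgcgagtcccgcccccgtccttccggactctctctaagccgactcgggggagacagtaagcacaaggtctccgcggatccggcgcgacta
Ppox, chr1:171281137-171281436, minus strand: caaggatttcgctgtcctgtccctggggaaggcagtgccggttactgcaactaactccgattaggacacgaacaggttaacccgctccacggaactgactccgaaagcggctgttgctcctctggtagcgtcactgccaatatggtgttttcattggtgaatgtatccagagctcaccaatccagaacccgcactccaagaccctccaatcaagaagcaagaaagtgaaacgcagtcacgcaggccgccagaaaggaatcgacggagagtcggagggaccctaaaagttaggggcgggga

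The Alas2 window held 1 match, 86 bases before the start. The Cpox window held 3, at 91 and 86 bases before the start, overlapping by 1 base, and at position 5 after it. The downstream Uros window held 2, at 205 and 68 bases before the start, and the upstream Uros and Ppox windows held none, as did those of Alad, Urod and Tfrc. Urod thus had no match, although it shared the order of Alas2 and Cpox over the arrays. Of the 10 windows searched, 1 each of 3 genes (Alas2, Cpox and Uros) held a match. Over all 32851 promoter entries of this length, 29.8% held at least 1 match, 7.8% at least 2 and 1.8% at least 3. The letters CCACCC, the core that KLF1 and related factors bind, occurred 3 times in the Alas2 window on the other strand, at 40, 35 and 30 bases before the start with neighbours overlapping by 1 base. They also occurred 3 times in 1 of the 2 Tfrc windows and 1 time in the other, and in none of the other windows searched for these genes. At least 1 occurrence was found in 31.5% of all entries, at least 2 in 8.5% and at least 3 in 2.3%. Matches are descriptions of these letters, and binding was not measured.

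Astragalus against control held the single largest difference of the 9 genes, that of Fech. Of the 9, 8 were higher and 1 lower in astragalus, with a median difference of 0.44, against 55.3% of all genes higher and a median of 0.05; with the trend on level removed 4 of 9 were higher and the median was -0.12. Fech was 2.39-fold higher, Cpox 1.96-fold, and Alas2 and Urod 1.68-fold each. These 4 of 9 were at least 1.5-fold higher, where 14.4% of all genes and 2197 of the 9229 genes at or above 6.63 were. Fech alone was at least 2-fold higher, where 6.13% of all genes and 1002 of the 9229 were. None of the 9 was at least 1.5-fold lower, where 6.67% of all genes were. Quantile normalization left Fech and Cpox past 1.5-fold, at 1.00 and 0.69 on the log2 scale, and removal of the trend left Fech, at 0.71. Tfrc was 1.36-fold and Slc25a37 1.30-fold higher, Alad and Uros were within 1.10-fold, and Ppox was 1.10-fold lower.

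In astragalus against cisplatin all 9 genes were higher in astragalus, by 0.24 for Alad at the least and 0.82 for Fech at the most, with a median of 0.45, against 56.8% of all genes higher and a median of 0.06; with the trend removed 5 were higher. Fech, 1.77-fold, and Urod, 1.66-fold, passed 1.5-fold, so 2 of 9 did. Of all genes 9.38% did so upward, as did 1419 of the 9229 genes at or above 6.63. None of the 9 was 1.5-fold lower, against 5.01% of all genes. Quantile normalization left 1 of the 2 past 1.5-fold (Fech, at 0.69 on the log2 scale). Removal of the trend left none, with Fech at 0.36 and Urod at 0.39. Ppox and Tfrc were each 1.46-fold higher, Cpox 1.37-fold, Alas2 1.32-fold and Slc25a37 1.29-fold.

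Electro-acupuncture and cisplatin were close for most of the pathway. Of the 9 genes 7 were higher in electro-acupuncture, 1 lower and 1 equal, with a median difference of 0.03, against 52.5% of all genes higher and a median of 0.02; with the trend removed 4 were higher. None of the 9 reached 1.5-fold, which 6.03% of all genes did upward and 5.27% downward. The genes that differed most were Cpox, 1.29-fold higher, Tfrc, 1.22-fold higher, and Urod, 1.21-fold higher. Alas2, Fech, Uros and Slc25a37 differed by 0.03 or less.

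Cisplatin and control gave a mixed picture, with 5 genes higher in cisplatin, 4 lower and a median of 0.01, against 50.6% of all genes higher and a median of 0.01; centred arrays gave 3 higher, and removal of the trend gave 4 with a median of -0.18. Cpox was 1.43-fold, Fech 1.36-fold and Alas2 1.27-fold higher in cisplatin marrow, none of them reaching 1.5-fold, which 7.1% of all genes did. Ppox was 1.61-fold lower, the 1 gene of 9 at least 1.5-fold lower, where 4.27% of all genes were. Of all genes, 2.8% had a difference below that of Ppox. Urod and Slc25a37 differed by 1.01-fold each.

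Set against control, electro-acupuncture also had Cpox higher, by 1.85-fold, and Ppox lower, by 1.74-fold. These were the 1 gene of 9 at least 1.5-fold higher, against 11.2% of all genes, and the 1 at least 1.5-fold lower, against 6.85%. Fech was 1.39-fold and Alas2 1.28-fold higher, Alad was equal, and in all 6 genes were higher and 2 lower, with a median of 0.18, against 53.7% of all genes higher and a median of 0.04; with the trend removed 4 were higher and the median was -0.13. In the comparison of astragalus with electro-acupuncture all 9 genes were higher in astragalus, with a median of 0.37 and with 57.5% of all genes higher; quantile normalization and removal of the trend each left 7 higher. Fech, 1.73-fold, and Ppox, 1.58-fold, passed 1.5-fold, 2 of 9 against 5.68% of all genes and 849 of the 9229 genes at or above 6.63. None was 1.5-fold lower, against 4.18% of all genes, and Cpox differed by 1.06-fold. No gene was past 1.5-fold after quantile normalization, with Fech at 0.58 and Ppox at 0.42, or after removal of the trend, with 0.49 and 0.37.

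**Figure D2:**
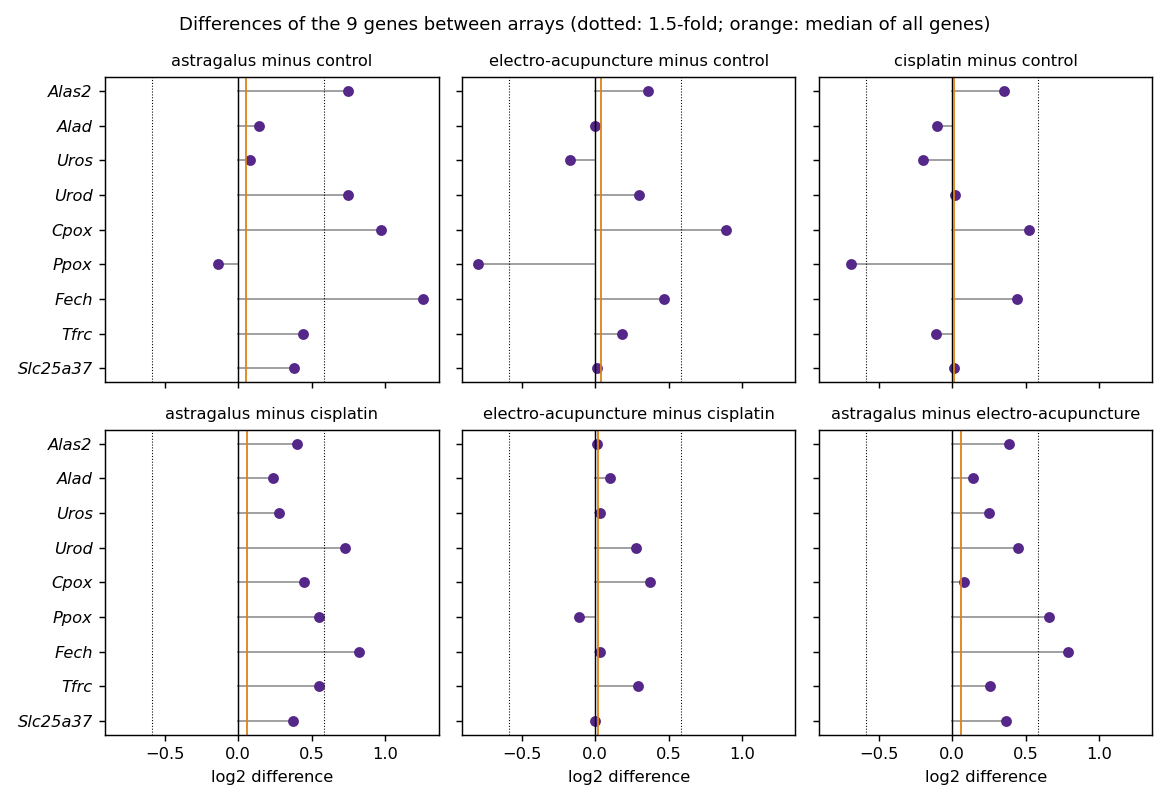
Log2 difference of each of the 9 genes (points; first array minus second, horizontal axis) in the 6 comparisons, with dotted lines at 1.5-fold and an orange line at the median of all genes. As deposited, every gene is above 0 in astragalus against cisplatin and against electro-acupuncture, Fech reaches 1.26 in astragalus against control, and Ppox lies at -0.69 in cisplatin and -0.80 in electro-acupuncture against control.

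On the astragalus array most strongly expressed genes, and not the heme genes alone, were higher than on the other arrays. It had the widest spread of values of the 4 arrays, 7.20 between its 5th and 95th percentiles, against 6.80 in electro-acupuncture, 6.83 in cisplatin and 6.81 in control. Among the 9229 genes at or above the 75th percentile, 67.4% were higher in astragalus than in control, 70.5% higher than in cisplatin and 76.1% higher than in electro-acupuncture. By mean level, Uros lay above 72.8% of all genes tested, Alas2 above 97.5% and Tfrc above 97.8%. With the trend on level removed, astragalus exceeded control by 0.71 for Fech, 0.46 for Cpox, 0.42 for Urod and 0.17 for Alas2, and the difference was -0.19 for Slc25a37 and -0.45 for Alad. Against cisplatin the median of the 9 was 0.08 on that scale, with 0.36 for Fech, 0.39 for Urod and 0.00 for both Alas2 and Cpox.

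Outside the comparisons of astragalus, 3 differences past 1.5-fold, of Ppox and Cpox, stayed past it under these scalings. Ppox in cisplatin against control had a deposited difference of -0.69, which was -0.69 with quantile normalization and -0.70 without the trend. In electro-acupuncture against control it was -0.80, -0.78 and -0.87. Cpox in electro-acupuncture against control was 0.89, 0.81 and 0.68 on the same 3 scales. The difference of Tfrc in astragalus against control was 0.44 and 0.06 on the first pair of scales and -0.12 after removal of the trend.

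**Figure D3:**
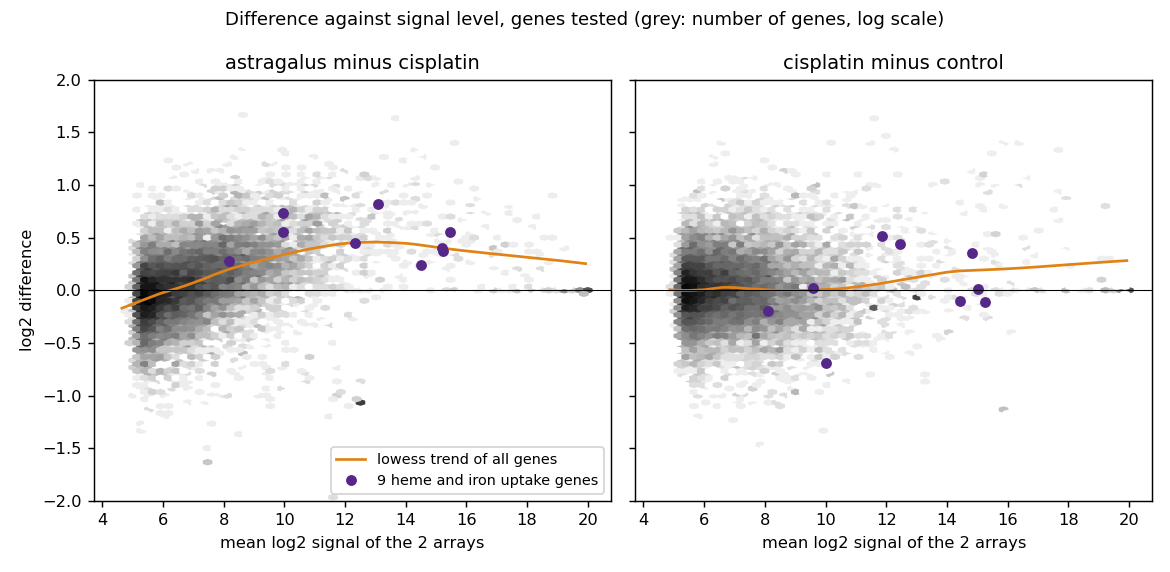
Log2 difference (vertical axis, drawn from -2 to 2) against the mean log2 signal of both arrays, in astragalus against cisplatin and cisplatin against control; grey shading counts genes on a log scale, the line is the lowess trend of all genes and the points are the 9 genes. In astragalus against cisplatin the line lies above 0 at high signals, with Fech 0.36 and Urod 0.39 above it and Alas2 and Cpox on it; in cisplatin against control Ppox lies at -0.69 and Cpox at 0.52.

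Markers of red cell precursors were mostly lower in cisplatin than in control, where the heme genes were divided. Of the erythroid list (18 of 20 measured: membrane and cytoskeletal genes such as Slc4a1, Rhag and Epb42, carbonic anhydrases Car1 and Car2, and others, with Klf1 and Gata1 also in the transcription factor list and Tspo2 in the heme transport list), 16 were lower in cisplatin than in control and 2 higher, with a median of -0.38 that ranged from -0.48 to -0.38 over the scalings. Of all genes, 46.9% were lower in cisplatin than in control. Alas2, Cpox and Fech were higher in that same comparison, by 0.35, 0.52 and 0.44 as deposited and by 0.16, 0.45 and 0.34 with the trend removed. Ppox, Uros, Tfrc and Alad were lower, with differences of -0.69, -0.20, -0.11 and -0.10, Urod and Slc25a37 were near 0, and the median of the 9 was 0.01, or -0.18 with the trend removed. In astragalus against cisplatin all 18 of the erythroid list were higher, where 56.8% of all genes and 70.5% of the strongly expressed 9229 were. Their median was 0.79, which was 0.61 after quantile normalization and 0.40 after removal of the trend. Against control, 14 were higher in astragalus and 3 lower, where 55.3% of all genes and 67.4% of the strongly expressed 9229 were higher. The median of 0.48 became -0.03 after removal of the trend. In electro-acupuncture against control 8 were higher and 9 lower, with a median of -0.03, where 53.7% of all genes were higher. The list's levels ran from 7.68 to 17.38 in astragalus, 7.45 to 16.93 in electro-acupuncture, 7.38 to 16.52 in cisplatin and 7.09 to 16.89 in control marrow, so these markers reached high levels on all 4 arrays. The part of these markers in the differences of the heme genes was not tested.

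Genes of dividing cells differed in the same direction as the erythroid list in astragalus against cisplatin and in cisplatin against control. All 11 measured of 12 (among them Mki67, Top2a and Cdk1) were higher in astragalus than in cisplatin, with a median of 0.98 that was 0.62 after removal of the trend. Of all genes 56.8%, and of the strongly expressed 9229 genes 70.5%, were higher in that comparison. In cisplatin 10 of the 11 were lower than in control, with a median of -0.29, where 46.9% of all genes were lower. Macrophage genes differed most on the electro-acupuncture array. All 11 that passed the floor were higher there than in cisplatin, median 0.54, and than in control, median 0.85. Of all genes, 52.5% and 53.7% were higher in these comparisons. C1qb passed the floor of 5.235 through electro-acupuncture alone, at 6.25 there, 4.98 in astragalus, 5.18 in cisplatin and 5.13 in control. Levels of the macrophage genes ran from 5.83 to 10.25 in electro-acupuncture, 5.18 to 9.91 in cisplatin and 5.13 to 8.76 in control marrow. Neutrophil genes had a median of 0.70 in astragalus against cisplatin. The part of dividing cells, macrophages and neutrophils in the values of the heme genes was not tested.

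**Figure D4:**
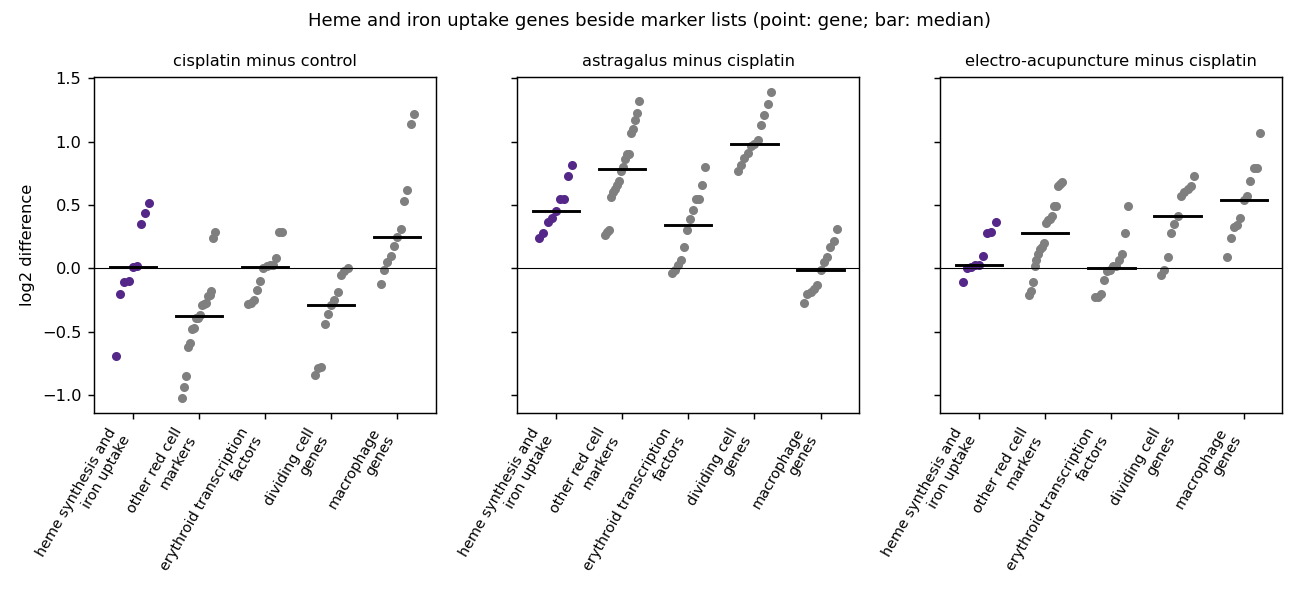
Log2 difference of each gene (points) and the median (bars) of the 9 heme synthesis and iron uptake genes, the erythroid markers, erythroid transcription factors, dividing cell genes and macrophage genes in 3 comparisons. Erythroid markers have a median of -0.38 in cisplatin against control, where the 9 genes have 0.01, and both are above 0 in astragalus against cisplatin, at 0.79 and 0.45.

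Genes that regulate heme synthesis or move its intermediates were measured for 13 of a list of 14. In astragalus against control all 13 were higher, median 0.33, where 55.3% of all genes and 67.4% of the strongly expressed 9229 were, and 2 passed 1.5-fold, near the 14.4% of all genes; after removal of the trend 9 were higher, with a median of 0.21. Tmem14c, which helps the porphyrin intermediate reach the mitochondrial matrix, had 10.70 in astragalus, 10.61 in electro-acupuncture, 10.01 in cisplatin and 9.32 in control marrow. It thus had the order of Cpox, 2.60-fold higher in astragalus and 2.45-fold higher in electro-acupuncture than in control. Eif2ak1, the kinase that slows protein synthesis when heme is short, had 11.17 in astragalus, 10.46 in electro-acupuncture, 10.30 in cisplatin and 10.36 in control marrow, with astragalus 1.83-fold and electro-acupuncture 1.12-fold above cisplatin. Abcb10, a mitochondrial transporter that in mouse binds mitoferrin 1, had 8.61 in astragalus, 8.08 in electro-acupuncture, 7.96 in cisplatin and 8.40 in control marrow, with the same higher pair as Ppox. Alas1, the first enzyme's form in other tissues, had 7.65 in astragalus, 7.64 in electro-acupuncture, 7.82 in cisplatin and 7.45 in control marrow and did not share the order of Alas2.

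Iron uptake and release inside the cell was covered by 8 genes above the floor, of which 7 were higher in astragalus than in control, median 0.33, and 6 higher than in cisplatin, median 0.23. Of all genes 55.3% and 56.8% were higher in these comparisons, and with the trend removed the medians were 0.25, with 7 higher, and 0.04, with 5 higher. Ncoa4, the receptor that delivers ferritin for breakdown and so frees its iron, had 10.90 in astragalus, 10.40 in electro-acupuncture, 10.27 in cisplatin and 10.04 in control marrow, the order of Alas2. Exoc6, a vesicle protein of transferrin recycling that is mutated in the anemic hbd mouse, had 11.44 in astragalus, 11.24 in electro-acupuncture, 11.09 in cisplatin and 10.63 in control marrow. Snx3, which returns the transferrin receptor to the surface, was 1.65-fold higher in astragalus than in control. Trf, transferrin itself, was highest in electro-acupuncture, at 8.95 against 8.20 in control, 1.68-fold.

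Iron storage, export and sensing genes did not share a direction, with 5 of 10 higher and 4 lower in astragalus than in control. That is near the share of all genes, of which 55.3% were higher. The median of 0.06 became -0.12 after removal of the trend. Fth1, the ferritin heavy chain, had 15.10 on all 4 arrays and is 1 of 65 genes tested whose value was equal on all 4 below the ceiling; the origin of these equal values was not tested. Ftl1, the light chain, had 15.40 in astragalus, electro-acupuncture and cisplatin and 14.69 in control marrow. Hamp, which encodes the iron hormone hepcidin made mainly in liver, had 6.42 in astragalus and 7.21 in control marrow, 1.73-fold lower in astragalus. Pcbp2, an iron chaperone, was 1.66-fold higher in astragalus than in cisplatin.

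Ferrochelatase of mammals carries an iron-sulfur cluster, and 11 of 14 genes of cluster assembly were measured. In astragalus 9 of them were higher than in control, median 0.32, and 9 higher than in cisplatin, median 0.32, medians that were 0.07 and 0.04 with the trend removed. The shares of all genes higher were 55.3% and 56.8%, and of the strongly expressed 9229 they were 67.4% and 70.5%. In each comparison 1 of the 11 was at least 1.5-fold higher, where 14.4% and 9.38% of all genes were. Hspa9, the mitochondrial chaperone of the pathway, had 11.03 in astragalus, 10.93 in electro-acupuncture, 10.60 in cisplatin and 9.52 in control marrow. It was higher than control on all the other arrays, 2.85-fold in astragalus, 2.66-fold in electro-acupuncture and 2.11-fold in cisplatin. Its partner Hscb was 1.65-fold higher in astragalus than in cisplatin. Isca1 and Isca2, which act late in assembly, were lowest in electro-acupuncture, at 8.03 and 7.73, 1.53-fold below astragalus for Isca1 and 1.57-fold below cisplatin for Isca2.

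Heme export and breakdown genes were measured for 7 above the floor. Hmox1, the inducible heme oxygenase, had 8.92 in astragalus, 9.76 in electro-acupuncture, 9.19 in cisplatin and 8.05 in control marrow, 3.27-fold higher in electro-acupuncture than in control. It is also a macrophage gene and belongs to that list. Blvrb, which reduces biliverdin and flavins and is abundant in red cells, was 1.95-fold higher in astragalus than in control, and Abcg2, which exports porphyrins, was 1.69-fold higher. Of the 7 genes, 4 were higher and 3 lower (Flvcr1, Hmox2 and Blvra) in astragalus than in control, where 55.3% of all genes were higher. In electro-acupuncture 5 were higher and 2 lower than in control, where 53.7% of all genes were higher. The medians were 0.56 and 0.54.

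The globin chains that take up the heme could not be followed. The 4 clusters of the adult alpha and beta chains are each shared by several genes and read 19.93, the ceiling of the scale, on all 4 arrays. Hbq1a and Hbq1b, theta globins with clusters of their own, were lowest in electro-acupuncture, at 7.47 and 9.93, against 8.35 and 10.57 in control. Of the 12 erythroid transcription factors 11 were higher in astragalus than in control, with a median of 0.35 that became 0.08 after removal of the trend, and 67.4% of the strongly expressed 9229 genes were higher. Gata1 had 7.68 in astragalus, 7.45 in electro-acupuncture, 7.38 in cisplatin and 7.09 in control marrow, the same order as Alas2, Urod, Cpox and Fech. Klf1 and Foxo3, also regulators of red cell maturation, were lowest in cisplatin, 1.74-fold and 1.58-fold below astragalus.

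Among 11199 protein-coding genes below the ceiling, likeness to a gene was measured as the root mean square distance between profiles over the 4 arrays, each centred on its own mean. The 5 nearest to Alas2 were Arhgdib, Ap2m1, Fnta, Bloc1s4 and Rnf130, at 0.0148 to 0.0255, while the nearest of the other heme and iron uptake genes, Urod, ranked 767th at 0.1365. The nearest to Tfrc were Fnip2, Zfp330, Ftsj1, Lyz1 and Uba3, at 0.0148 to 0.0238, and the nearest to Slc25a37 were Zfp51, Copz1, Bmpr1a, Ypel5 and Mkrn1, at 0.0071 to 0.0166. With 4 arrays many genes have near-equal profiles, so the ranks describe these arrays only.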

How the data were processed

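Per the labels, marrow RNA of 4 groups was measured on 1 Affymetrix array each. The deposited values are log2 signals per transcript cluster, made with Affymetrix Expression Console per the submitters' processing notes. The sources used here do not give its version, the summary method or the array build. They run from 2.7 to a ceiling of 19.93. Arrays carry no read depth, and their number limits the precision.

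Of 65956 clusters, 31221 named 1 gene, 1529 several and 33206 none in the platform's gene table, and no gene was named from a cluster of several. RefSeq (GRCm38.p6) updated 1088 symbols. A gene with several clusters was represented by its highest-mean cluster. A mean of at least 5.235 kept 17207 genes. Differences are log2 values of the first group minus the second, with python 3.11.15, numpy 2.4.6, pandas 2.3.3 and statsmodels 0.14.6 (lowess fraction 0.3). The difference of cisplatin and control was tested on simulated data without a trend on level. The choice of a cluster per gene was run there too but could not fail, because the raised cluster was the one already chosen. The scalings and the search of the promoters were not tested on simulated data. Besides the 9 genes, list members at least 1.5-fold different were eligible to be named, up to 4 per list and comparison, and those shown are a choice among them. Some genes of the pathway and lists are not reported here. The genes and lists were chosen with earlier results of these data known. Alternatives were median centring, quantile normalization, removal of the trend on level, the mean of a gene's clusters, no filter and a filter at 6.63.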

Additional observations from a re-analysis of the deposited data

How the results depend on the processing

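All 9 genes have 1 cluster and lie above both floors, so averaging clusters, dropping the filter and filtering at the 75th percentile altered none of their 54 differences. Median centring moved a difference by at most 0.09, quantile normalization by 0.38 and removal of the trend by 0.59, and turned the sign of 4, 8 and 14 of the 54. None of these had been at least 1.5-fold. With arrays centred, 3 of 9 genes instead of 5 were higher in cisplatin than in control. After quantile normalization the median of the 9 was -0.11 for cisplatin against control, 0.33 for astragalus against cisplatin, 0.06 for astragalus against control, -0.09 for electro-acupuncture against control and 0.20 for astragalus against electro-acupuncture, and the number at least 1.5-fold different was 1, 2 and 0 in the comparisons of astragalus with cisplatin, control and electro-acupuncture. After removal of the trend the medians were -0.18 for cisplatin against control, 0.08 for astragalus against cisplatin, -0.12 for astragalus against control, -0.13 for electro-acupuncture against control and 0.12 for astragalus against electro-acupuncture. The number higher was then 5 for astragalus against cisplatin, 4 for electro-acupuncture against cisplatin and 4 for astragalus against control, and the number at least 1.5-fold different 0, 1 and 0 in the comparisons of astragalus with cisplatin, control and electro-acupuncture. The gene lists were rescaled the same way, a choice made after seeing the data. No paired analysis was possible because each group has 1 array. Arrays could not be left out in turn for the same reason.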

Other observations

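In the other lists of marrow cell types, all 9 measured megakaryocyte and platelet genes were higher in cisplatin than in control, where 50.6% of all genes were. Their median log2 difference was 1.88, and the median was 1.87 in astragalus and 1.91 in electro-acupuncture against control. All 9 early B cell genes above the floor were lower in cisplatin than in control, with a median of -1.10, where 46.9% of all genes were lower. Of these, 7 were higher in astragalus than in cisplatin and 2 lower, median 0.40. In that comparison 56.8% of all genes and 70.5% of the strongly expressed 9229 were higher. Of the 7 osteoblast genes above the floor, 6 were higher and 1 lower in cisplatin than in control, with a median of 2.28. Of all genes 50.6% were higher. Of the 7 osteoblast genes, 5 were at least 2-fold higher, where 2.01% of all genes were, while Sp7 differed by -0.13 and Ibsp by 0.28. The medians of the list were -1.22 in astragalus and -1.58 in electro-acupuncture against cisplatin. Skeletal muscle genes had 3 of 8 above the floor, with medians between -0.01 and 0.04 in the 6 comparisons. Gapdh had 11.34 in astragalus, 11.27 in electro-acupuncture, 11.27 in cisplatin and 10.65 in control marrow, and Actb had 17.67 on the first 3 and 17.55 in control marrow.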
